A study of Mus musculus with 12 samples.

Results

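Mitochondrial biogenesis needs nuclear genes that make, copy and read the mitochondrial genome, and 10 of them were followed in H9c2 cells given doxorubicin alone or with a protective agent. The 10 genes were *Ppargc1a*, *Ppargc1b*, *Pprc1*, *Nrf1*, *Gabpa*, *Esrra*, *Tfam*, *Tfb2m*, *Polg* and *Polrmt*. They were chosen by gene symbol for their known roles, out of 54345 genes in the table, and each symbol matched a single gene. The 10 genes were also among the 25044 genes tested, which had FPKM above 0 in at least 3 libraries. *Ppargc1a* passed with only 4 libraries above 0, and 3 of these were of 1 group, so its values are given without a test and it is left out of the counts of called genes, which are over the other 9.

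H9c2 is a cardiomyoblast line that the study describes as rat, while the labels name the mouse and call the cells wild-type myoblasts. The cells were left untreated (Unt), given doxorubicin (DOX), given doxorubicin with dexrazoxane (D_DXZ), or given doxorubicin with magnesium hexacyanoferrate nanocatalysts (D_MgHCF), each for 6 h. Doxorubicin is an anthracycline, and dexrazoxane is the agent used clinically against its harm to the heart. Each group had 3 libraries of 1 line, all treated groups carried doxorubicin, neither agent was given alone, and the doses in the sequenced cells are not given in the sources used here. Nothing states that the 3 libraries came from separate cultures, so the p-values measure the spread between these samples, which may be technical.

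Mitochondria hold their own small genome, but the proteins that copy and transcribe it are made from nuclear genes. The coactivators PGC-1α, PGC-1β and PRC (*Ppargc1a*, *Ppargc1b* and *Pprc1*) bind transcription factors such as NRF1, the GABP complex and ERRα (*Nrf1*, *Gabpa* and *Esrra*), which act on genes of the respiratory chain and of mtDNA upkeep. TFAM packs mtDNA and, with TFB2M and the RNA polymerase POLRMT, starts its transcription, while POLG copies it. Heart cells are rich in mitochondria, and PGC-1α is known as a main driver of their formation in heart and muscle.

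The depth was 16626514 to 19365119 reads on genes per library, recovered from the deposited FPKM, the fragments counted for each kilobase of a gene after a correction for library size. That correction took each library as a multiple of its read total, at 1.32 to 1.38 for the Unt libraries and 1.26 to 1.43 for those of D_MgHCF, but only 0.647 to 0.784 for DOX and 0.747 to 0.892 for D_DXZ. A level in DOX was thus set higher than the read total alone would set it. The 3rd D_MgHCF library stood apart, with a correlation of 0.957 and 0.974 with the others of its group. The cell type of the labels was not borne out by defining markers, since 1 of 9 skeletal myoblast markers and 1 of 9 cardiac muscle markers reached a mean of 1 FPKM in Unt, and *Myod1*, *Myf5* and *Myog* stayed at 0.126 FPKM or below. Of 8 markers of other cell types, 2 reached that level in Unt. The summed level of these 8 ranged over 20.9 to 22.8 FPKM in the Unt libraries, 69.8 to 82.5 with DOX, 46.3 to 69.2 with D_DXZ and 21.7 to 39.6 with D_MgHCF, most of it from the collagen gene *Col1a1*. That of the 9 cardiac muscle markers was 9.80 to 11, 3.19 to 5.90, 3.04 to 4.29 and 15.1 to 26.4 FPKM in the same groups, most of it from *Gata4*, while *Tbx5* was at 0 in all 12 libraries. That of the 9 skeletal myoblast markers was 2.47 to 2.63, 1.33 to 1.92, 2.57 to 3.05 and 2.03 to 6.13 FPKM. The part of these markers in the results was not tested.

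Promoters from the RefSeq table (GRCm38.p6) were taken for 9 of the 10 genes, and none was searched for *Ppargc1b*. Each covers 250 bases before to 50 after a gene start, and 5 motifs were searched on both strands. The NRF1 core GCATGCGC was in 3 of the 9 genes (*Esrra*, *Tfb2m* and *Polrmt*) and in 2.71% of all 32851 promoters in the table. The ETS core CCGGAAG, the kind of site GABP binds, was in 4 of the 9 genes (*Gabpa*, *Tfam*, *Polg* and *Polrmt*) and in 8.86% of all promoters. The GC box GGGCGG was in 5 of 9 genes and 35.7% of all promoters. The ERR motif AAGGTCA (4.72% of all promoters) and the CRE motif TGACGTCA (1.79%) were in none of the 9 genes. *Nrf1* had 2 windows, so the counts are of genes while the shares are of promoters. In *Polg*, 2 GC box matches shared 2 bases, and no other matches overlapped in these windows. A match describes the letters only, and these are mouse sequences, while the study describes the line as rat. The *Pprc1* window (chr19:46056289-46056588) lies inside the gene as deposited (chr19:46044886-46072915), so it does not cover the deposited start.

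The promoters of 2 genes that fell in DOX (*Tfam* and *Polrmt*) and of 2 that were lower in D_MgHCF than in DOX (*Gabpa* and *Tfb2m*) are printed to show these letters in place, written 5′ to 3′ along each gene's strand, with capitals marking the NRF1 core and the ETS core. They lie at chr10:71237995-71238294 (− strand), chr10:79746532-79746831 (− strand), chr16:84834874-84835173 (+ strand) and chr1:179546227-179546526 (− strand), in the order printed.
Tfam: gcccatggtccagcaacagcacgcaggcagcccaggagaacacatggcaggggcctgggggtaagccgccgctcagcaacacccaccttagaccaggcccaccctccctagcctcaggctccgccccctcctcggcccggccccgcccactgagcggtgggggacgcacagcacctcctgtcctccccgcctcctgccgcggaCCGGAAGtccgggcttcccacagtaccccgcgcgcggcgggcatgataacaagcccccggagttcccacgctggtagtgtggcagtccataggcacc
Polrmt: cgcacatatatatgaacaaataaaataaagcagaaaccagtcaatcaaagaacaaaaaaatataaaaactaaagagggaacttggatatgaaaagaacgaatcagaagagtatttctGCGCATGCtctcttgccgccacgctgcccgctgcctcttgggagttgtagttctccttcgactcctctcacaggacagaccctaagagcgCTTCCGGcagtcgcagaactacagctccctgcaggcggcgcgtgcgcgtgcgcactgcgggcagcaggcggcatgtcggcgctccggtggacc
Gabpa: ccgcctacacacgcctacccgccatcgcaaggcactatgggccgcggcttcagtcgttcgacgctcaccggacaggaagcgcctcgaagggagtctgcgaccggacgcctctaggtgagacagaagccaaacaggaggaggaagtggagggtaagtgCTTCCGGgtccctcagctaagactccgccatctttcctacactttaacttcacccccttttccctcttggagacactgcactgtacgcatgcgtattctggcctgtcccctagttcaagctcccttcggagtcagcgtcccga
Tfb2m: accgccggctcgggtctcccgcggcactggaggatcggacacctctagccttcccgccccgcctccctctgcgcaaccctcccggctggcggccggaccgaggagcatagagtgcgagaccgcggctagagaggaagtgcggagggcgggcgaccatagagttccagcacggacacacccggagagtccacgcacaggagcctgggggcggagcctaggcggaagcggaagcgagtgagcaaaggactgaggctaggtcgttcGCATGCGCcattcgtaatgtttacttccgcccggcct
The ETS core began 47 bases before the start in *Tfam*, 43 before it in *Polrmt* and 93 before it in *Gabpa*. The NRF1 core began 133 bases before the start in *Polrmt* and 13 bases after it in *Tfb2m*. Of the genes that fell and the genes that did not, both kinds thus held the NRF1 core and the ETS core.

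DOX changed 6 of the 9 genes tested against Unt. *Pprc1*, *Nrf1*, *Tfam*, *Polrmt* and *Ppargc1b* were lower, to between 10.7% and 27.8% of the Unt mean FPKM, and *Gabpa* was higher at 1.71-fold, a direction that TPM and FPKM over the summed reads turned round. Calls were made with limma on log2(FPKM + 1) at a Benjamini-Hochberg adjusted p under 0.05 over all genes tested. Of all genes, 18.6% were called higher and 19.9% lower in this comparison, against 1 and 5 of the 9. The median log2 difference was -0.66 over the 9 genes and 0 over all genes tested. With TPM 9 of the 9 were called lower, beside 40.1% of all genes, and over the summed reads 6 were, beside 33.2%. D_DXZ changed the same 6 genes in the same directions against Unt, 1 higher and 5 lower, where 15.9% of all genes were called higher and 18% lower, and with TPM all 9 were called lower, beside 39.6%. These comparisons share the Unt libraries.

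D_MgHCF against Unt left 4 genes lower (*Pprc1*, *Nrf1*, *Gabpa* and *Tfam*) and 0 higher, beside 15.7% of all genes lower and 24.3% higher. Against DOX, D_MgHCF had 5 genes higher (*Polrmt*, *Pprc1*, *Tfam*, *Esrra* and *Ppargc1b*) and 2 lower (*Gabpa* and *Tfb2m*), beside 31.4% and 20.1% of all genes. Against D_DXZ, 3 genes were higher (*Polrmt*, *Esrra* and *Ppargc1b*) and the same 2 lower, beside 29.4% and 19% of all genes. The count against DOX was 4 without the 2nd DOX library, and the count against D_DXZ was 3 without either the 2nd or the 3rd D_DXZ library. With TPM, D_MgHCF had 7 genes higher and 0 lower than DOX, beside 53.2% and 6.70% of all genes, and 6 higher and 1 lower than D_DXZ, beside 50.5% and 6.14%. With quantile normalization these counts were 3 and 2, beside 18.5% and 19.6% of all genes, and 2 and 3, beside 18.3% and 19.3%.

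D_DXZ against DOX gave no called member with limma, and 0% of all genes were called higher and 0% lower. At an unadjusted p under 0.05, 2 members (*Pprc1* and *Nrf1*) and 2388 of 25044 genes (9.54%) differed. The lowest adjusted p over all genes was 0.087, voom on the recovered reads called 0 genes, and quantile normalization called 3.

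**Figure D1:**
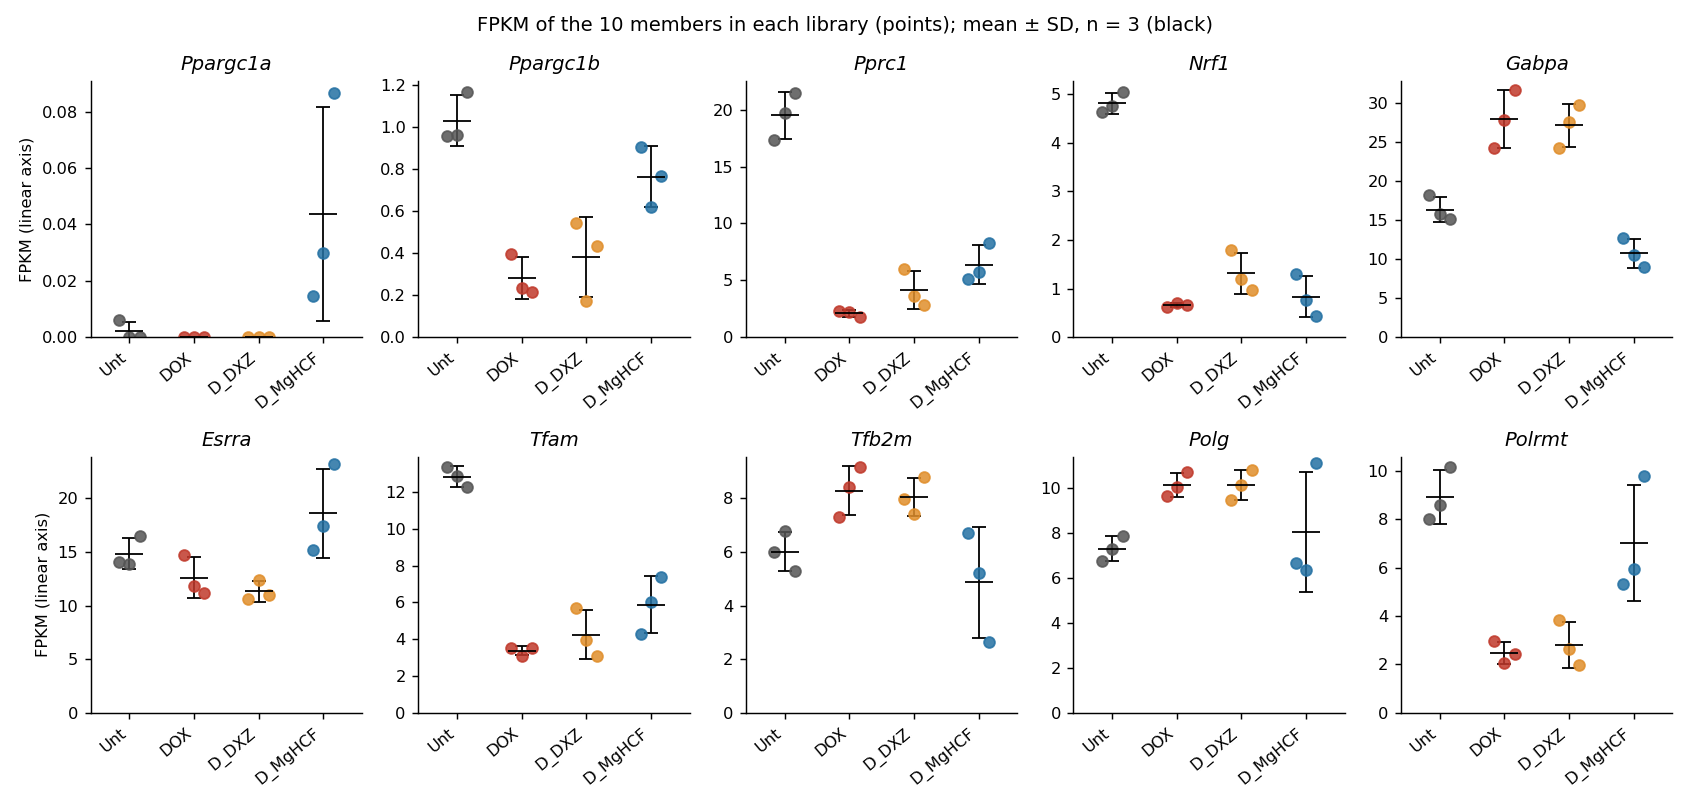
FPKM (linear axes that start at 0) of each of the 10 genes in the 12 libraries, with 1 point a library and the mean ± SD (n = 3) in black. *Pprc1*, *Nrf1*, *Tfam* and *Polrmt* sat highest in Unt and at 3.53 FPKM or less in all DOX libraries, while *Gabpa* sat highest in DOX and D_DXZ on this scale, though not with TPM.

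Among the coactivators, *Ppargc1a* (GRCm38, chr5:51454250-51567726, − strand) was close to absent. It had 1 read in 1 Unt library and 0 in the other 2, and 0 in the 3 DOX and 3 D_DXZ libraries. The D_MgHCF libraries had 2, 5 and 14 reads, which are 0.0144, 0.0298 and 0.0865 FPKM. All 3 D_MgHCF libraries lay above the other 9, with most of the reads in the library that stood apart. More genes were detected in D_MgHCF over the whole table, so such a pattern is not particular to *Ppargc1a*. Genes above 0 FPKM numbered 23368 to 25456 per library in D_MgHCF and 20160 to 20660 in Unt. The numbers were 18530 to 20381 in DOX and 19413 to 19662 in D_DXZ. For a group at 0 reads, 3 reads over the group were taken as the limit that 0 reads allow. The D_MgHCF mean was 3.74 times that limit for DOX and 4.04 times that for D_DXZ. Without the 3rd D_MgHCF library these ratios were 1.90 and 2.05. The ratios allow for counting error in the groups at 0 but not in the few D_MgHCF reads, so they are not lower limits of the difference. At this depth no difference between Unt, DOX and D_DXZ was detectable.

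*Ppargc1b*, the related coactivator PGC-1β, was 0.956, 0.962 and 1.17 FPKM in Unt. It was 0.396, 0.234 and 0.217 FPKM in DOX, 0.543, 0.172 and 0.432 in D_DXZ, and 0.907, 0.620 and 0.766 in D_MgHCF. The DOX and D_DXZ libraries all lay below the D_MgHCF libraries and these below the Unt libraries, with no overlap. The log2 difference was -0.66 ± 0.12 (SE) for DOX against Unt (adjusted p = 0.00125) and 0.46 ± 0.12 for D_MgHCF against DOX (adjusted p = 0.0096). The pseudocount of 1 makes these differences small for a gene at this level, where the ratio of mean FPKM was 3.64 between Unt and DOX. The gene rested on 9 to 114 reads per library, and the call of D_MgHCF against D_DXZ (0.36 ± 0.12, adjusted p = 0.033) was lost with a pseudocount of 0.1, with no filter, in a fit of the 2 groups and without the 2nd or the 3rd D_DXZ library or the 1st D_MgHCF library (adjusted p up to 0.132). Quantile normalization ended both calls of D_MgHCF, with 0.13 against DOX (adjusted p = 0.476) and 0.04 against D_DXZ (adjusted p = 0.849).

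*Pprc1*, which encodes the coactivator PRC (chr19:46044886-46072915, + strand), had the highest level of the 10 genes in Unt and the largest fall. It was 17.4, 19.7 and 21.4 FPKM in Unt and 2.32, 2.20 and 1.76 in DOX. It was 6.01, 3.64 and 2.79 FPKM in D_DXZ and 5.13, 5.73 and 8.28 in D_MgHCF. Every treated library lay below every Unt library, and every D_DXZ and D_MgHCF library lay above every DOX library, while D_DXZ and D_MgHCF overlapped. The log2 difference was -2.73 ± 0.22 for DOX against Unt (adjusted p = 1.3e-05), a mean 9.31-fold lower. D_MgHCF lay between, at 1.24 ± 0.22 against DOX (adjusted p = 0.00101) and -1.49 ± 0.22 against Unt (adjusted p = 0.000654). For D_DXZ against DOX it was 0.69 (95% interval 0.19 to 1.19, adjusted p = 0.394), a mean 1.98-fold higher that did not pass the test. *Pprc1* overlaps the gene *Ldb1* on the other strand by 329 bases. *Ldb1* was 32 ± 2.49 FPKM in Unt, 19.3 ± 3.91 in DOX, 18.7 ± 1.47 in D_DXZ and 46 ± 10.6 in D_MgHCF (SD, n = 3). The library kit is not stated to keep strand, so reads in that overlap cannot be told apart.

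Among the transcription factors, *Nrf1* (chr6:30047988-30153458, + strand), which encodes nuclear respiratory factor 1, was low in every treated group. It was 4.63, 4.76 and 5.04 FPKM in Unt, 0.615, 0.705 and 0.664 in DOX, 1.79, 1.19 and 0.969 in D_DXZ, and 1.29, 0.772 and 0.444 in D_MgHCF. All 9 treated libraries lay below the 3 Unt libraries, and D_MgHCF overlapped both DOX and D_DXZ. The log2 difference from Unt was -1.81 ± 0.19 for DOX (adjusted p = 3.5e-05), -1.34 ± 0.19 for D_DXZ (adjusted p = 0.00034) and -1.69 ± 0.19 for D_MgHCF (adjusted p = 0.000125). D_MgHCF against DOX gave 0.12 (95% interval -0.30 to 0.53, adjusted p = 0.624). The mean in D_MgHCF was thus 17.4% of that in Unt, against 13.8% in DOX, whereas *Tfam* and *Polrmt* were called higher in D_MgHCF than in DOX on this scale. With TPM *Nrf1* was also called higher in D_MgHCF than in DOX (0.62, adjusted p = 0.0199), as were 53.2% of all genes. That value lay below the median of 0.87 over the 11515 genes with a mean of at least 1 FPKM. Over the summed reads the value was 0.51 (adjusted p = 0.0501). Quantile normalization gave -0.27 against DOX (adjusted p = 0.189) and a call lower than D_DXZ (-0.70, adjusted p = 0.00392).

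*Gabpa* (chr16:84834925-84863779, + strand), the DNA-binding subunit of the GABP complex, moved the opposite way. It was 18.1, 15.8 and 15.1 FPKM in Unt, 24.2, 27.8 and 31.6 in DOX, 24.2, 27.5 and 29.7 in D_DXZ, and 12.7, 10.5 and 9.04 in D_MgHCF. The D_MgHCF libraries lay below Unt and the Unt libraries below DOX and D_DXZ, with no overlap, while DOX and D_DXZ overlapped. The log2 difference was 0.73 ± 0.14 for DOX against Unt (adjusted p = 0.0015), 0.70 ± 0.14 for D_DXZ against Unt (adjusted p = 0.00264), -0.57 ± 0.14 for D_MgHCF against Unt (adjusted p = 0.00908) and -1.30 ± 0.14 for D_MgHCF against DOX (adjusted p = 3.4e-05). The rise in DOX turned to -0.57 with TPM and -0.18 with FPKM over the summed reads, and that in D_DXZ to -0.44 and -0.03. With quantile normalization the values were 0.26 and 0.38 and were not called. D_MgHCF against DOX shrank to -0.39 over the summed reads (adjusted p = 0.0078) and to -0.15 with TPM, where the call was lost (adjusted p = 0.179). *Gabpa* overlaps *Atp5j*, a subunit of ATP synthase on the other strand, by 701 bases. *Atp5j* was 27.8 ± 0.464 FPKM in Unt, 96.5 ± 9.99 in DOX, 81.4 ± 9.38 in D_DXZ and 31.2 ± 8.92 in D_MgHCF, and its part in the *Gabpa* values was not tested.

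*Esrra* (chr19:6910977-6921813, − strand), which encodes the orphan nuclear receptor ERRα, was 14.1, 13.9 and 16.5 FPKM in Unt and 14.7, 11.8 and 11.2 in DOX, which overlapped. It was 10.6, 12.4 and 11 FPKM in D_DXZ and 15.2, 17.4 and 23.2 in D_MgHCF, and the D_MgHCF libraries lay above all DOX and D_DXZ libraries. The difference of DOX from Unt did not pass the test (log2 difference -0.23, 95% interval -0.57 to 0.12, adjusted p = 0.322). It was called lower with TPM (-1.50, adjusted p = 0.000325) and over the summed reads (-1.10, adjusted p = 0.000847), as was D_DXZ against Unt (-1.48 and -1.07). D_MgHCF stood 0.52 ± 0.15 above DOX (adjusted p = 0.0168) and 0.65 ± 0.15 above D_DXZ (adjusted p = 0.00546). The call against DOX was lost in a fit of the 2 groups and without the 2nd or the 3rd DOX library (adjusted p = 0.0562 and 0.0654), and the value was 1.66 with TPM. *Esrra* overlaps *Trmt112* on the other strand by 73 bases.

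Among the genes of the mitochondrial transcription machinery, *Tfam* (chr10:71225464-71238280, − strand), which packs mtDNA and opens its promoters, fell in all treated groups. It was 13.4, 12.9 and 12.3 FPKM in Unt, 3.52, 3.11 and 3.53 in DOX, 5.72, 3.95 and 3.09 in D_DXZ, and 4.28, 6.03 and 7.36 in D_MgHCF. The 9 treated libraries lay below the 3 Unt libraries, and D_MgHCF lay above DOX but overlapped D_DXZ. The log2 difference from Unt was -1.66 ± 0.20 for DOX (adjusted p = 7.1e-05), -1.43 ± 0.20 for D_DXZ (adjusted p = 0.000312) and -1.03 ± 0.20 for D_MgHCF (adjusted p = 0.00244). D_MgHCF was 0.63 ± 0.20 above DOX (adjusted p = 0.0209), a mean 1.74-fold higher, and still 45.9% of the Unt mean. That call was lost without the 2nd DOX library or the 2nd or 3rd D_MgHCF library (adjusted p up to 0.0656), with no filter and in a fit of the 2 groups. With quantile normalization the value was 0.32 and not called (adjusted p = 0.229), and with TPM it was 1.62.

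*Polrmt* (chr10:79736123-79746581, − strand), the mitochondrial RNA polymerase, was 7.99, 8.60 and 10.2 FPKM in Unt and 2.95, 2.06 and 2.42 in DOX. It was 3.85, 2.64 and 1.97 FPKM in D_DXZ and 5.32, 5.95 and 9.77 in D_MgHCF. DOX and D_DXZ overlapped each other and lay below all Unt and D_MgHCF libraries, and D_MgHCF overlapped Unt. The log2 difference was -1.51 ± 0.23 for DOX against Unt (adjusted p = 0.000346), -1.40 ± 0.23 for D_DXZ against Unt (adjusted p = 0.000831), 1.17 ± 0.23 for D_MgHCF against DOX (adjusted p = 0.00163) and 1.06 ± 0.23 for D_MgHCF against D_DXZ (adjusted p = 0.00335). Against Unt, D_MgHCF gave -0.34 (95% interval -0.85 to 0.17, adjusted p = 0.26), and without the 3rd D_MgHCF library the value was -0.58 and passed the test (adjusted p = 0.0357).

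*Tfb2m* (chr1:179528055-179546267, − strand), the factor that melts the mtDNA promoter with POLRMT, did not follow *Tfam* and *Polrmt*. It was 5.98, 6.77 and 5.30 FPKM in Unt, 7.31, 8.42 and 9.16 in DOX, 8, 7.4 and 8.81 in D_DXZ, and 6.72, 5.21 and 2.66 in D_MgHCF. The DOX and D_DXZ libraries lay above those of Unt and D_MgHCF, and the last of D_MgHCF, from the library that stood apart, was the lowest. For DOX against Unt the log2 difference was 0.41 ± 0.23 (adjusted p = 0.217). D_MgHCF was -0.73 ± 0.23 against DOX (adjusted p = 0.0223), a call lost without the 2nd or the 3rd DOX library (adjusted p up to 0.0731), and -0.69 ± 0.23 against D_DXZ (adjusted p = 0.0292), a call lost without any 1 of the D_DXZ libraries (adjusted p up to 0.0869). Both calls were also lost with no filter, in a fit of the 2 groups and over the summed reads, and both values turned positive with TPM (0.31 and 0.19). Against Unt, DOX and D_DXZ turned to -0.80 and -0.68 with TPM and were called lower (adjusted p = 0.00733 and 0.0184). The *Tfb2m* values are uncertain, since 1187 bases of its transcript are 99.3% identical to *Gm1818*. *Gm1818* was 2.76 ± 0.206 FPKM in Unt, 3.48 ± 0.609 in DOX, 3.67 ± 0.769 in D_DXZ and 1.91 ± 0.691 in D_MgHCF, and its part in the *Tfb2m* values was not tested.

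*Polg* (chr7:79446231-79466362, − strand), the catalytic subunit of the mtDNA polymerase, was 6.75, 7.27 and 7.84 FPKM in Unt and 9.63, 10.0 and 10.7 in DOX. It was 9.46, 10.1 and 10.8 FPKM in D_DXZ and 6.66, 6.33 and 11.1 in D_MgHCF. DOX and D_DXZ lay above Unt without overlap, and the 3rd D_MgHCF library was the highest of the 12 while the other 2 were the lowest. The log2 difference of DOX from Unt was 0.43 ± 0.17 (95% interval 0.06 to 0.80), with adjusted p = 0.0696, and without the 3rd D_MgHCF library the same value passed the test at adjusted p = 0.00115, since the spread is estimated over all groups. Without that library D_MgHCF was -0.57 against DOX (adjusted p = 0.000312), in place of -0.34 ± 0.17 (adjusted p = 0.113). With TPM the differences of DOX and D_DXZ from Unt turned to -0.80 and -0.65, and those of D_MgHCF from DOX and D_DXZ to 0.76 and 0.61, all 4 called (adjusted p = 0.0122, 0.0358, 0.0136 and 0.0393). *Polg* overlaps *Fanci*, a DNA repair gene on the other strand, by 4034 bases, and *Fanci* was 7.08 ± 0.303 FPKM in Unt, 14.1 ± 1.88 in DOX and 2.42 ± 0.94 in D_MgHCF.

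**Figure D2:**
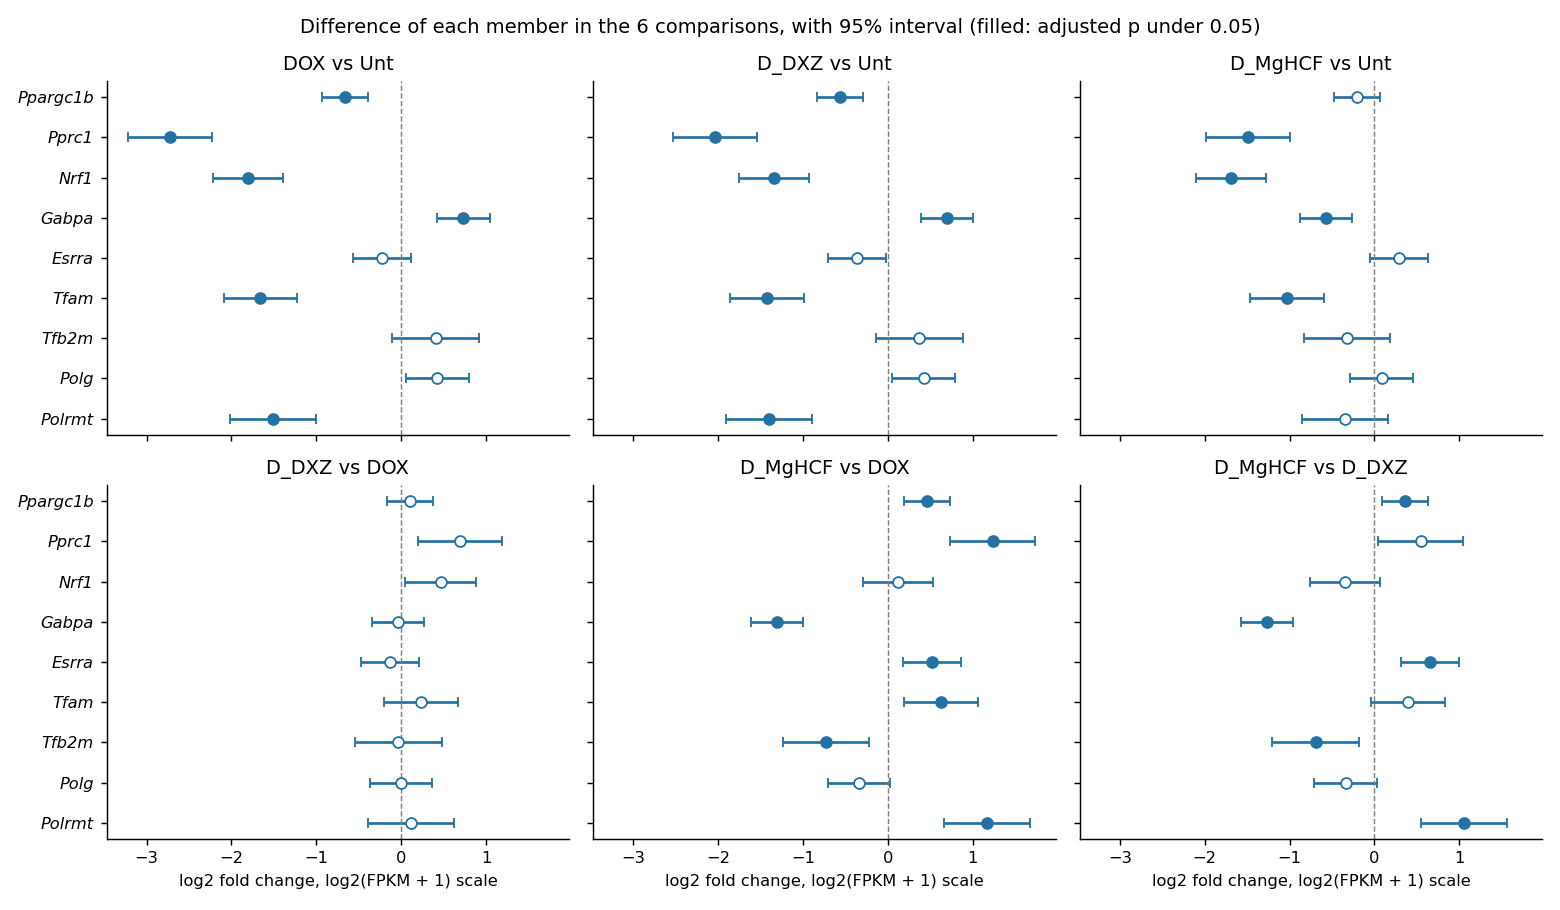
Log2 fold change (x axis, log2(FPKM + 1) scale) of 9 genes in the 6 comparisons, with 95% intervals, where filled points passed an adjusted p under 0.05. The panels of DOX and D_DXZ against Unt hold the same 6 filled points, the panel of D_DXZ against DOX holds none, and *Nrf1* is filled in all 3 panels against Unt but in neither panel of D_MgHCF against DOX or D_DXZ.

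The order of the levels also differed between groups. In Unt it ran *Pprc1*, *Gabpa*, *Esrra*, *Tfam*, *Polrmt*, *Polg*, *Tfb2m*, *Nrf1*, *Ppargc1b* and *Ppargc1a* by mean FPKM, and only *Pprc1* with *Gabpa*, *Gabpa* with *Esrra* and *Polg* with *Tfb2m* had neighbouring ranges that overlapped. In DOX it ran *Gabpa* (27.9 FPKM), *Esrra* (12.6), *Polg* (10.1), *Tfb2m* (8.29), *Tfam* (3.38), *Polrmt* (2.48), *Pprc1* (2.09), *Nrf1* (0.661) and *Ppargc1b* (0.282), with an overlap between *Polrmt* and *Pprc1*. In D_DXZ the order was that of DOX, except that *Pprc1* (4.15 FPKM) stood above *Polrmt* (2.82), and *Tfam*, *Pprc1* and *Polrmt* overlapped with their neighbours, as did *Esrra* with *Polg*. In D_MgHCF *Esrra* came first at 18.6 FPKM, apart from *Gabpa* at 10.7, and the 6 genes from *Gabpa* down to *Tfb2m* overlapped each with the next. FPKM is per length, so levels of different genes are on 1 scale, but how reads of a line described as rat were assigned to mouse genes is not given in the sources used here, and the order also rests on that step and on the overlapping and near-identical genes named above.

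How the libraries are scaled sets part of these differences. The median of 11515 genes with a mean of at least 1 FPKM was 0.05 on the log2 scale for DOX against Unt in the deposited FPKM, but -1.03 with TPM and -0.69 with FPKM over the summed reads. For D_MgHCF against DOX it was -0.09, 0.87 and 0.67. Of the calls for DOX against Unt, 48.3% were higher in the deposited FPKM, 9.87% with TPM and 20% over the summed reads, and for D_MgHCF against DOX 61%, 88.8% and 83.8%. For D_DXZ against Unt the share was 46.8%, 8.47% and 19.4%, and for D_MgHCF against D_DXZ it was 60.7%, 89.2% and 82.7%. For D_MgHCF against Unt it was 60.7%, 57.4% and 63.9%, and 47.9% with quantile normalization, which gave 48.5% for D_MgHCF against DOX and 48.7% against D_DXZ. The falls of *Pprc1*, *Nrf1*, *Tfam*, *Polrmt* and *Ppargc1b* in DOX and in D_DXZ were called under each of these scalings and lay below the median shift in each. *Gabpa* in DOX lay above the median shift under all of them, by 0.68 in the deposited FPKM, 0.46 with TPM and 0.51 over the summed reads. Which of these scalings matches the RNA per cell was not tested.

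**Figure D3:**
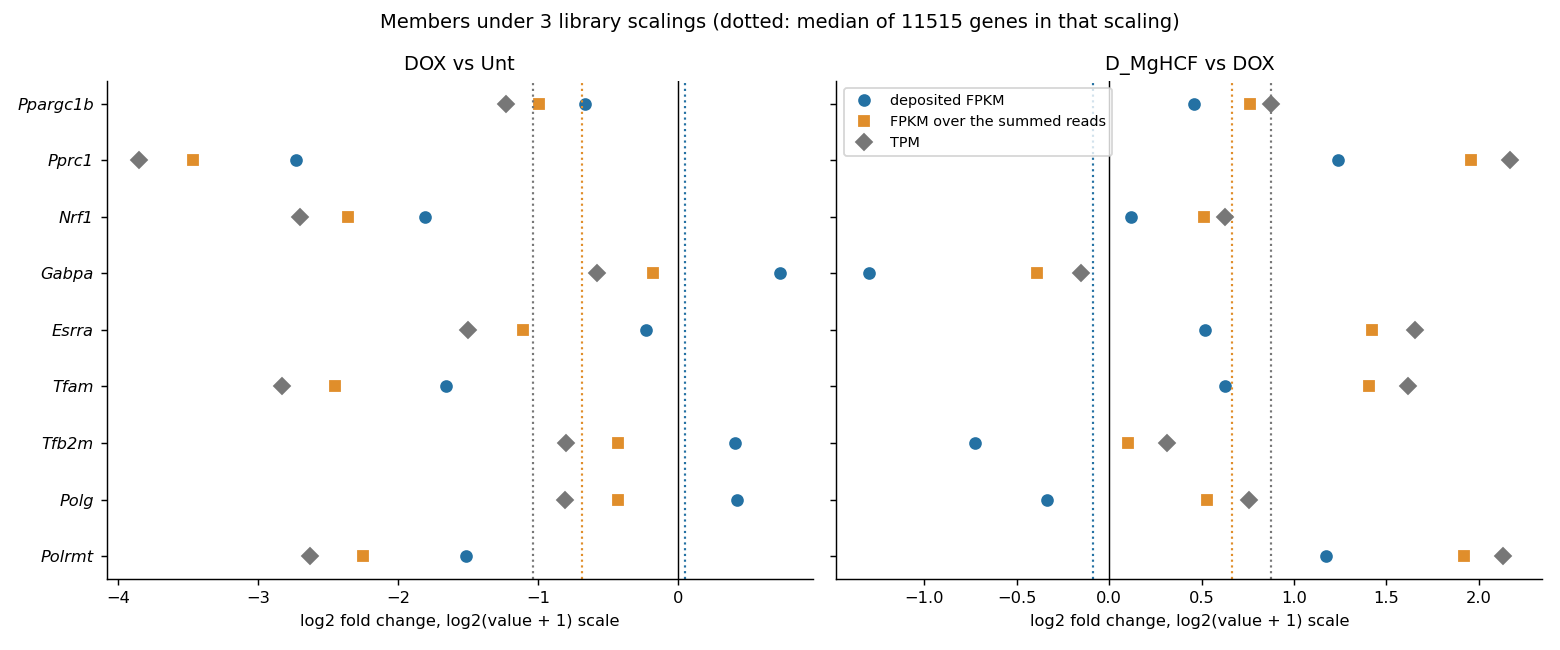
Log2 fold change (x axis) of 9 genes in 2 comparisons under the deposited FPKM, FPKM over the summed reads and TPM, where dotted lines mark the median of 11515 genes in the same scaling. In DOX against Unt *Pprc1*, *Nrf1*, *Tfam* and *Polrmt* lie left of their dotted line in all 3 scalings, while *Gabpa*, *Tfb2m* and *Polg* change sign but stay to its right.

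Related genes were counted in 7 lists with 92 genes in all. The counts stand beside the shares of all genes called higher and lower, which were 18.6% and 19.9% for DOX against Unt and 15.9% and 18% for D_DXZ against Unt. For D_MgHCF these shares were 24.3% and 15.7% against Unt and 31.4% and 20.1% against DOX. Some list counts lay near or below them. For D_MgHCF against DOX these included 3 of 13 mitochondrial genome mRNAs higher and 3 of 14 RNA processing genes higher. Under TPM the shares were 4.39% and 40.1% for DOX against Unt and 53.2% and 6.70% for D_MgHCF against DOX. Quantile normalization gave 16.7% and 17.3%, and 18.5% and 19.6%, for the same comparisons. Over the summed reads they were 8.29% and 33.2% for DOX against Unt. In the coactivator and receptor network, DOX had 11 of 17 tested genes lower and 1 higher than Unt, with a median log2 difference of -0.80, and D_MgHCF had 10 higher and 2 lower than DOX, with a median of 0.43. That median was 0.10 with quantile normalization (6 higher and 3 lower) and 1.18 with TPM (15 higher and 1 lower), and that of DOX against Unt was -0.55 and -1.66. *Perm1*, a muscle regulator that acts with PGC-1α and ERRα, was 2.07 ± 0.256 FPKM in Unt, 1.85 ± 0.671 in DOX and 8.21 ± 1.86 in D_MgHCF. *Ppard*, a nuclear receptor for fatty acids, was 18.9 ± 1.4, 7.68 ± 3.02 and 24.6 ± 8.1 FPKM. *Kat2a*, the acetyltransferase GCN5 that acts on PGC-1α, went the other way at 35.3 ± 3.09, 47.3 ± 6.86 and 14 ± 1.04 FPKM. D_DXZ had 10 genes lower and 0 higher than Unt.

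In mtDNA replication and repair, 9 of 15 genes were lower and 1 higher in DOX than in Unt (median -0.47), and D_MgHCF had 6 higher and 4 lower than DOX (median 0.26). With TPM these medians were -1.47 and 1.28, with 14 lower and 0 higher in DOX and 10 higher and 0 lower in D_MgHCF, and with quantile normalization they were -0.25 and 0.19. *Twnk*, the mtDNA helicase, was 15.4 ± 0.723 FPKM in Unt, 9.21 ± 1.17 in DOX, 9.35 ± 1.09 in D_DXZ and 26.2 ± 4.38 in D_MgHCF. *Top3a*, a topoisomerase that unlinks mtDNA, was 5.84 ± 0.594 FPKM in Unt, 3.32 ± 1.01 in DOX and 15.6 ± 1.52 in D_MgHCF. *Exog*, a mitochondrial nuclease, was 3.1 ± 0.174, 0.761 ± 0.026 and 2.76 ± 0.539 FPKM. *Twnk* and *Top3a* thus stood higher in all D_MgHCF libraries than in any Unt library, a pattern that *Polg* did not show. Most of the list did not show it either. D_MgHCF against Unt had 3 of the 15 genes higher and 7 lower (median -0.33), beside 24.3% and 15.7% of all genes.

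In mtDNA transcription, 6 of 8 genes were lower than Unt in DOX, 6 in D_DXZ and 7 in D_MgHCF, with 0 higher in any, beside medians of -0.87, -0.64 and -0.64, which were -1.51, -1.35 and -0.85 with TPM. *Tefm*, the elongation factor of POLRMT, was 7.53 ± 0.893 FPKM in Unt, 0.751 ± 0.226 in DOX, 1.71 ± 0.384 in D_DXZ and 1.74 ± 0.676 in D_MgHCF, all treated libraries lying below Unt. *Mterf4*, which guides the assembly of mitochondrial ribosomes, was 1.65 ± 0.12 FPKM in Unt, 0.279 ± 0.151 in DOX and 1.11 ± 0.124 in D_MgHCF. *Mrpl12*, a ribosomal protein that also binds POLRMT, was 31.2 ± 2.65, 33.2 ± 2.3 and 19.2 ± 5.32 FPKM. Under quantile normalization, 0 of the 8 genes differed between D_MgHCF and DOX, in place of 3 higher and 1 lower, while with TPM 6 were higher and 0 lower.

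The genes that supply mitochondrial nucleotides had 5 of 10 higher and 1 lower in DOX than in Unt (median 0.40) and 2 higher and 6 lower in D_MgHCF than in DOX (median -0.61). The first median turned to -0.56 with TPM and -0.25 over the summed reads, and the second to 0.13 with TPM. *Rrm1*, the large subunit of ribonucleotide reductase, was 26.1 ± 0.599 FPKM in Unt, 70.3 ± 11.1 in DOX, 61.5 ± 7.46 in D_DXZ and 2.95 ± 1.91 in D_MgHCF. *Sucla2*, a subunit of succinyl-CoA synthetase, was 15.2 ± 1.35, 57.1 ± 6.72 and 22.9 ± 1.51 FPKM in Unt, DOX and D_MgHCF, and *Mpv17*, an inner membrane protein needed to keep mtDNA, was 5.09 ± 0.325, 21.1 ± 3.1 and 5.96 ± 1.42 FPKM.

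In mitochondrial RNA processing and stability, 5 of 14 genes were higher and 6 lower in DOX than in Unt (median -0.25, and -1.37 with TPM), and D_MgHCF had 3 higher and 7 lower than DOX (median -0.41, which turned to 0.47 with TPM and 0.29 over the summed reads). The subunits of mitochondrial RNase P differed in direction: *Trmt10c* was 6.85 ± 0.793 FPKM in Unt, 1.21 ± 0.288 in DOX and 5.54 ± 1.76 in D_MgHCF, whereas *Hsd17b10* was 46.7 ± 3.9, 150.7 ± 13.8 and 51.9 ± 11.8 FPKM. *Elac2*, which cuts the other end of mitochondrial tRNAs, was 14 ± 1.42 FPKM in Unt, 25.8 ± 2.85 in DOX and 7.89 ± 0.339 in D_MgHCF.

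Nuclear genes that are known targets of NRF1, GABP and ERRα did not follow *Nrf1*. In DOX and in D_DXZ 13 of 14 were higher and 1 lower than in Unt, with median log2 differences of 1.80 and 1.61. In D_MgHCF 5 were higher and 0 lower than in Unt (median 0.19), and 13 were lower and 1 higher than in DOX (median -1.53). *Sdhd*, a membrane anchor of complex II, was 68.1 ± 3.38 FPKM in Unt, 283.6 ± 42.2 in DOX, 233.1 ± 28.6 in D_DXZ and 75.1 ± 7.94 in D_MgHCF. *Cox5a*, a subunit of complex IV, was 25.1 ± 1.96, 100.2 ± 16.4, 82.5 ± 11.2 and 27.5 ± 2.92 FPKM in the same groups. *Alas1*, the first enzyme of haem synthesis, was the exception at 5.64 ± 0.0774, 2.53 ± 0.628, 1.99 ± 0.352 and 16.7 ± 5.38 FPKM. For DOX against Unt, 8 of the 14 were higher and 2 lower with TPM, and 11 were higher and 1 lower over the summed reads, with 13 above the median shift in both. The median of DOX against Unt was then 0.46 with TPM, 0.87 over the summed reads and 0.43 with quantile normalization (9 higher and 0 lower), and that of D_DXZ was 0.52, 0.94 and 0.39. For D_MgHCF against DOX the median was -0.39 with TPM, -0.60 over the summed reads and -0.40 with quantile normalization (2 higher and 8 lower).

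**Figure D4:**
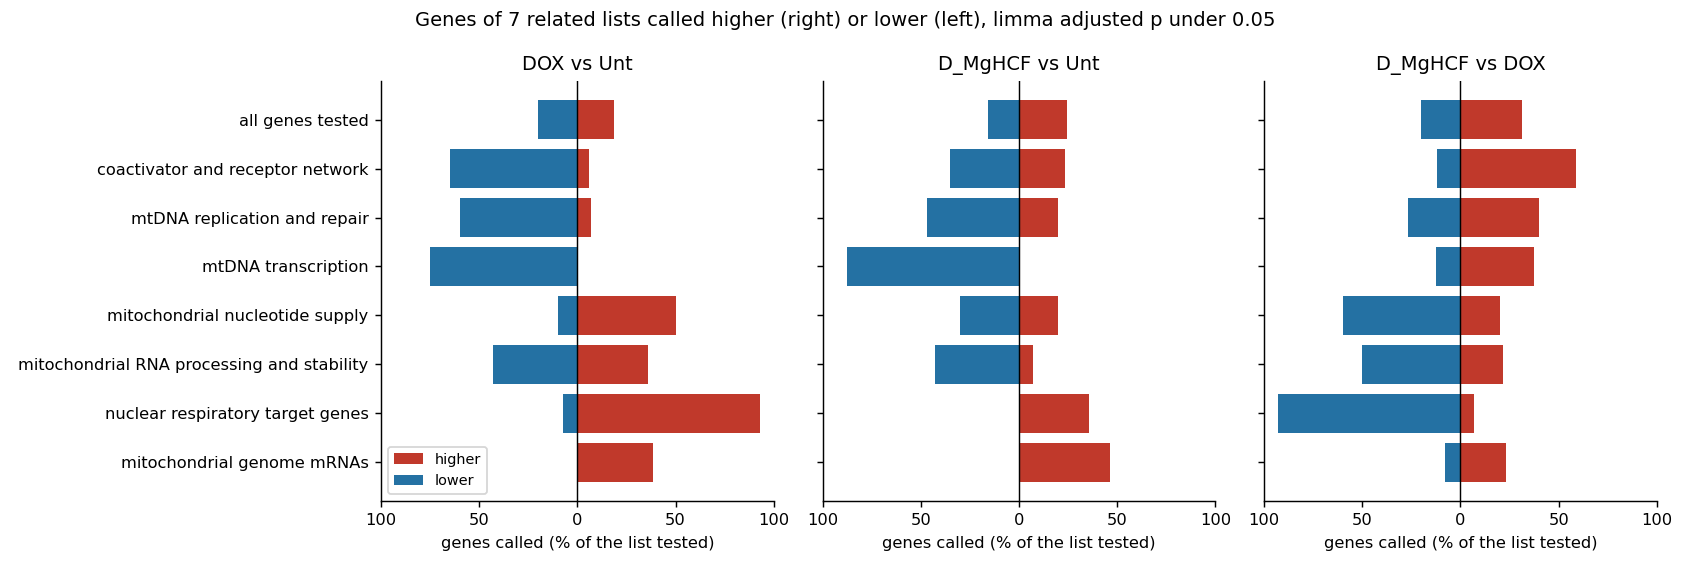
Share of each of 7 related lists (% of the genes tested) called higher (red, right) or lower (blue, left) in 3 comparisons, beside all genes tested. In DOX against Unt the nuclear respiratory target genes point right (13 of 14) while the mtDNA transcription, mtDNA replication and coactivator lists point left.

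The 13 mRNAs of the mitochondrial genome, which TFAM, TFB2M and POLRMT transcribe, did not fall with *Tfam* and *Polrmt* in the deposited FPKM. In DOX 5 of 13 were higher and 0 lower than in Unt (median 0.39), in D_DXZ 4 and 0 (median 0.55) and in D_MgHCF 6 and 0 (median 0.68). For DOX against Unt the median turned to -0.82 with TPM, where 1 was higher and 7 lower, to -0.49 over the summed reads, and to -0.75 with quantile normalization, so its direction rests on the scaling. The same scalings gave -0.64, -0.21 and -0.54 for D_DXZ against Unt. For D_MgHCF against Unt all scalings gave a positive median (0.51 to 0.79). In D_MgHCF 3 were higher and 1 lower than in DOX (median 0.25, which was 1.42 with TPM, where 10 were higher and 0 lower). *mt-Nd1*, *mt-Nd2* and *mt-Cytb* were higher, at 1795 ± 421 against 854.9 ± 157.8 FPKM, 779.8 ± 198.6 against 353.9 ± 82.2 FPKM and 1707 ± 316 against 849.7 ± 97.3 FPKM. The lower gene, named after its values were seen, was *mt-Co2* at 44.7 ± 14.4 against 77.6 ± 12.3 FPKM, and *mt-Co1*, the most abundant of the 13, was 6675 ± 2339 against 14781 ± 1451 FPKM and did not pass the test (adjusted p = 0.196). The 3 higher genes were 1019 ± 78.5, 476.4 ± 34.5 and 1319 ± 116 FPKM in Unt, above their DOX means. By contrast *mt-Co1* was 2880 ± 459 FPKM in Unt and *mt-Co2* was 24.2 ± 4.02, both below their DOX means. Mitochondrial genes took 1.19 to 1.41% of the reads of a Unt library, 2.73 to 2.89% for DOX, 2.73 to 3.27% for D_DXZ and 1.76 to 3.16% for D_MgHCF. The libraries were made from poly(A) RNA. Differences in cell number, in RNA per cell and in the number of mitochondrial genomes cannot be told apart here.

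The genes most like *Tfam* over the 12 libraries, by Pearson correlation of log2(FPKM + 1) among 11514 other genes with a mean of at least 1 FPKM, were *Rfc3* (0.994), *Stil* (0.989), *Riok1* (0.989), *Xrcc2* (0.989) and *Wdr82* (0.988). *Rfc3* went from 16.2 FPKM in Unt to 4.86 in DOX, 5.93 in D_DXZ and 8 in D_MgHCF. The genes most like *Ppargc1a* among 11515 were *Gbp7* (0.972), *Neurl1a* (0.949), *Llgl2* (0.947), *Synm* (0.942) and *Adgrl1* (0.94), and *Gbp7* was 0.716, 0.764, 0.598 and 2.05 FPKM in Unt, DOX, D_DXZ and D_MgHCF. These correlations describe 12 libraries in 4 groups that share their scaling, and for *Ppargc1a* they rest on 22 reads in all.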

How the data were processed

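From H9c2 poly(A) RNA, 12 libraries (3 in each of 4 groups) were sequenced as paired-end reads of 150 bp. For each library the authors deposited the FPKM of 54345 mouse Ensembl genes with GRCm38 coordinates, and the submitters' processing notes name HISAT2 2.0.5. The counting program is not given in the sources used here. FPKM multiplied by gene length was a whole multiple of 1 step per library (tolerance 0.1 read), so that 100% of the values came out as whole reads, and the steps showed a median-ratio scaling in the FPKM.

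Differences in log2(FPKM + 1) were tested by limma 3.58.1 (R 4.3.3), with a trended prior and all 12 libraries in 1 fit without covariates. A gene entered the 6 comparisons if 3 or more libraries had FPKM above 0 (25044 genes), and a gene was called at a Benjamini-Hochberg adjusted p under 0.05. A fold change on this scale understates that of low genes. On simulated data the step was checked with planted changes. That simulation scaled libraries by their read totals and held no library that stood apart, so it does not cover these features of the data. The 10 genes, the 7 lists, the marker lists and the tests were chosen with earlier results of these data known. All 10 genes are named, and in each list up to 3 genes with the largest change of D_MgHCF against DOX among those called with a mean of at least 1 FPKM.

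The alternatives changed the pseudocount (0.1), the filter (1 FPKM, or none) or the fit (a replicate block, other scalings, fits of the 2 groups compared, each library left out). Another was voom on the recovered reads, which called 10202 genes for DOX against Unt and 12367 for D_MgHCF against DOX. Overlaps came from the coordinates, and near-identical transcripts (at least 95% over 150 bases) from BLAST 2.17.0 on GENCODE M21. Depth limits genes with few reads.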

Additional observations from a re-analysis of the deposited data

How the results depend on the processing

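Of 28 member differences called, 19 kept their direction and their call in all alternatives, among them the falls of *Pprc1*, *Nrf1*, *Tfam*, *Polrmt* and *Ppargc1b* in DOX and in D_DXZ against Unt. For D_DXZ against DOX, 2 members had an unadjusted p under 0.05 and 0 passed the adjustment, and 1 to 10 of all genes passed in 13 alternatives. For D_MgHCF against DOX, 7 members were called, 4 in a fit of the 2 groups compared, and 4 to 7 with a library left out. That fit of the 2 groups called 9178 of 25044 genes, in place of 12890. For D_MgHCF against D_DXZ, 5 members were called, 3 without a filter, 3 in a fit of the 2 groups compared, and 3 to 6 with a library left out. Of all genes, 9962 of 54345 were called there without a filter and 8114 of 25044 in the fit of the 2 groups, in place of 12115. With a library left out, 6 to 9 members were called for D_DXZ against Unt, 9 without the 3rd D_MgHCF library, and 6 to 8 for DOX against Unt. In these fits 13.6 to 18.5% of all genes were called higher and 14.5 to 21.7% lower for D_DXZ against Unt, and 16.4 to 20.9% and 17.2 to 22.8% for DOX against Unt, with 18.5% and 21.7% for D_DXZ without the 3rd D_MgHCF library. For D_MgHCF they were 24.3 to 38% and 18.2 to 21.2% against DOX, and 23 to 36.2% and 17.1 to 20.4% against D_DXZ. A fit of the 2 groups compared called 6218 of all genes for D_MgHCF against Unt in place of 10037. The cause of these changes was not tested.

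With TPM, values turned to -0.57 for *Gabpa*, -0.80 for *Tfb2m* and -0.80 for *Polg* in DOX against Unt, -0.44 for *Gabpa*, -0.68 for *Tfb2m* and -0.65 for *Polg* in D_DXZ against Unt, -0.05 for *Polg* in D_MgHCF against Unt, 0.02 for *Esrra* in D_DXZ against DOX, 0.31 for *Tfb2m* and 0.76 for *Polg* in D_MgHCF against DOX, and 0.15 for *Nrf1*, 0.19 for *Tfb2m* and 0.61 for *Polg* in D_MgHCF against D_DXZ. Over the summed reads they turned to -0.18, -0.43 and -0.42 for *Gabpa*, *Tfb2m* and *Polg* in DOX against Unt, -0.03, -0.30 and -0.26 for the same genes in D_DXZ against Unt, 0.03 for *Esrra* in D_DXZ against DOX, 0.10 for *Tfb2m* and 0.53 for *Polg* in D_MgHCF against DOX, and 0.03 for *Nrf1* and 0.37 for *Polg* in D_MgHCF against D_DXZ. These scalings move the median of all genes in the same direction. Quantile normalization gave -0.27 for *Nrf1* in D_MgHCF against DOX. With a library left out, *Polg* in D_MgHCF against Unt ranged from -0.14 to 0.22, *Polrmt* in D_DXZ against DOX from -0.07 to 0.28, and *Nrf1* in D_MgHCF against DOX from -0.05 to 0.28.

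Of 18 same-numbered pairs of libraries, 2 had deviations that correlated above 0.1 (-0.31 to 0.31 over the 18). Both were between DOX and D_DXZ (0.31 and 0.22). With 3 libraries a group, these values cannot settle whether the replicate numbers pair the libraries. A replicate block called 7 members for DOX against Unt and 7 for D_DXZ against Unt, with 4, 0, 7 and 5 in the other comparisons. Of 25044 genes, the block called 9405 and 8271 in the first 2 comparisons, and 9552, 0, 12618 and 11782 in the others. Depth limits *Ppargc1a* (0 to 14 reads) and *Ppargc1b* (9 to 114 reads).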
